A study of Rattus norvegicus with 3 samples.

Results

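Hspa1a, Zfand2a, Ddit3 and Gadd45g are stress-inducible genes that were compared along the crypt-villus axis of the rat jejunum. They were picked by symbol, from their deposited values in these same samples. The platform annotation names 4379 genes among the 6653 deposited probes, and each of the 4 is measured by 1 probe. The rise at the villus top that led to their choice is therefore given as a description and carries no test. Male Sprague-Dawley rats aged 6 weeks supplied the tissue, and no treatment or genotype is named. Frozen jejunum was cut parallel to the surface into 10 µm sections, and 10 sections made up a fraction of 100 µm. Of 7 fractions counted from the villus top, the 6th was taken as crypt, the 4th as middle villus and the 1st as top villus. There was 1 sample of each part, the labels do not state how many animals contributed, and each fraction holds whatever other tissue lies at its depth besides epithelium.

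Epithelial cells of the small intestine are born in the crypt, stop dividing as they leave it, migrate along the villus and are shed at its tip. Misfolded protein in the cytosol activates heat shock factor, which switches on inducible chaperones and their helpers, while stress in the endoplasmic reticulum and shortage of amino acids act through phosphorylation of the initiation factor eIF2, the transcription factor ATF4 and its target CHOP. The GADD45 proteins are small nuclear proteins that bind cell-cycle and MAP kinase regulators and slow growth under stress. Zfand2a encodes AIRAP, a zinc-finger protein induced by arsenite in mouse and human cells, where it associates with the proteasome. Hspa1a encodes the inducible cytosolic Hsp70, Ddit3 encodes CHOP, and Gadd45g encodes the gamma member of the GADD45 family.

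The 4 genes were chosen for their rise at the villus top, and whether they share regulation was not tested. The 250 bases upstream of each annotated start are shown as a description only. They are RefSeq sequences of the GRCr8 assembly, read 5′ to 3′ on the gene's strand, at chr12:20275200-20275449 (plus strand) for Zfand2a, chr20:3859506-3859755 (plus strand) for Hspa1a, chr7:65001445-65001694 (plus strand) for Ddit3 and chr17:13530352-13530601 (minus strand) for Gadd45g. Capitals mark matches, on either strand, to the motifs described next.
Zfand2a: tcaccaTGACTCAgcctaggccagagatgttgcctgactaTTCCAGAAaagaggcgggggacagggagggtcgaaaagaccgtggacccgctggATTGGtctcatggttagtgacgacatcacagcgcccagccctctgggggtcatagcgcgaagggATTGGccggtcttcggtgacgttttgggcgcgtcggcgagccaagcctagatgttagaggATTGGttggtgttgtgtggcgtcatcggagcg
Hspa1a: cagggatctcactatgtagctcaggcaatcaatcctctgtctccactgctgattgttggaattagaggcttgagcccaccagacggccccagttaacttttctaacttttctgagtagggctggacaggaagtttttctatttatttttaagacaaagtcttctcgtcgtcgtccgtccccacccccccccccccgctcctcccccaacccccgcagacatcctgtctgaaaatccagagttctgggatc
Ddit3: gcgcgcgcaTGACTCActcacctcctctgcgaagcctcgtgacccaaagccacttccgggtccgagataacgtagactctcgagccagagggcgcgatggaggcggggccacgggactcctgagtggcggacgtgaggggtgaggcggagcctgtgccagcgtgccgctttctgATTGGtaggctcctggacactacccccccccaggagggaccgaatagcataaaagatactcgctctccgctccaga
Gadd45g: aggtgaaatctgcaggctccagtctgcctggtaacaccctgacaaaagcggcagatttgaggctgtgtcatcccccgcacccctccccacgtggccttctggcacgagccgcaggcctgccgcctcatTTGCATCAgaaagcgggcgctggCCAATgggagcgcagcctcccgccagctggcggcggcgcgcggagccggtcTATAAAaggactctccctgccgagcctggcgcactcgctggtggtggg

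Heat shock elements were searched only as the partial forms GAANNTTC and TTCNNGAA. Of 33469 rat promoter windows of the same length, 7.23% and 7.48% hold these. The longer form with a further repeat unit was not searched, so a match is not read as a full element. Zfand2a had 1 such match, TTCCAGAA, at 210 to 203 bases before the start. The composite element of C/EBP and ATF proteins, TGATGNAA, occurred once, in Gadd45g as TTGCATCA at 122 to 115 bases before the start, and is held by 3.40% of windows. The AP-1 motif TGANTCA was found as TGACTCA in Zfand2a, at 244 to 238 bases, and in Ddit3, at 241 to 235 bases, against 6.34% of windows. CCAAT boxes (CCAAT) were found in 3 of the 4 genes, 3 of them in Zfand2a, against 34.0% of windows, and a TATA box (TATAAA) stood at 48 to 43 bases in Gadd45g, against 12.9% of windows. The cAMP response element TGACGTCA was in none of the 4 and in 1.59% of windows. In Hspa1a none of these letters was found in this window. The window is set by the annotated start, and sequence outside it was not searched. Whether Hspa1a has a heat shock element elsewhere was therefore not tested. GC content was 58.8% for Zfand2a, 51.6% for Hspa1a, 63.6% for Ddit3 and 66.0% for Gadd45g, beside a median of 51.2% over all windows. A match describes letters only.

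All 4 genes stood at their highest value in the top villus sample, and the gap lay between middle and top villus rather than between crypt and middle villus. Values are the deposited log2 signals, whose channel and normalization are not given in the sources used here. A value below the lowest 25% of its column was called dim, which means below log2 6.05 in crypt, 4.15 in middle and 5.15 in top villus. A difference that involves 1 dim value was computed to that level and is a bound. With 1 sample per part there is no replicate error, so no difference has a test. In bulk fractions like these, fewer cells of a type and less RNA per cell cannot be told apart.

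Zfand2a read 7.60 in crypt, 8.17 in middle and 14.32 in top villus on the log2 scale, or 194, 287 and 20505 in linear units. Crypt and middle villus were close to each other and top villus was far above both. The log2 difference was 6.72 (105-fold) for top villus against crypt, 11th largest among the rises of 3932 genes compared, and 6.16 (71.4-fold) for top against middle villus, 6th of 3768. Between middle villus and crypt it was 0.56.

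Hspa1a read 5.01 in crypt and 1.72 in middle villus, both dim, and 9.16 in top villus. The probe was therefore measured in top villus alone, where its linear value was 571. Top villus was at least 8.63-fold above crypt and at least 32.2-fold above middle villus (log2 5.01), and middle villus and crypt were not compared. The larger bound rests on the low dim level of the middle villus column, and with a common dim level of log2 6 it was 3.16 log2 units. Rat has a near-identical neighbouring copy of this gene, Hspa1b, which is not among the named genes of the deposited values. Signal from the pair cannot be told apart here.

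Ddit3 read 8.59 in crypt, 8.85 in middle and 11.86 in top villus, or 386, 462 and 3724 in linear units. It had the shape of Zfand2a at smaller size. The log2 difference was 3.27 (9.66-fold) for top villus against crypt, 3.01 (8.06-fold) for top against middle villus and 0.26 for middle villus against crypt.

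Gadd45g read 6.89 in crypt, 5.87 in middle and 8.77 in top villus, or 119, 58.4 and 437 in linear units. Its lowest value was in middle villus, whereas Zfand2a and Ddit3 were lowest in crypt and the order of the dim Hspa1a values is not known. Top villus was 1.88 log2 units above crypt (3.69-fold) and 2.90 above middle villus (7.49-fold). The log2 difference of middle villus against crypt was -1.02 (2.03-fold lower), just past the 2-fold limit, and this call was lost with a common dim level of log2 6 and after quantile normalization, which gave -0.20.

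**Figure D1:**
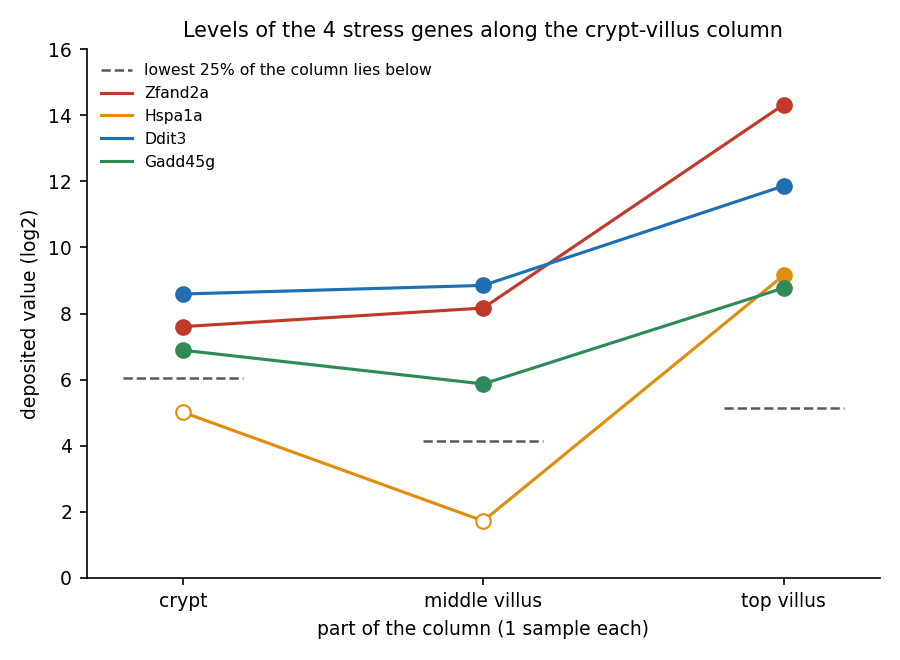
Deposited log2 signal (vertical axis) of Zfand2a, Hspa1a, Ddit3 and Gadd45g in the crypt, middle villus and top villus samples (horizontal axis, 1 sample each), with open points for dim values and dashed bars at the level below which a value in that column was dim. All 4 genes are highest in top villus, at 14.32 for Zfand2a, 9.16 for Hspa1a, 11.86 for Ddit3 and 8.77 for Gadd45g, and the Hspa1a points in crypt and middle villus lie below the dim level.

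The limit for calling a gene higher or lower was 2-fold. For top villus against crypt, 4 of 4 genes were higher, where 23.9% of 3932 genes were higher and 39.5% lower. For middle villus against crypt, 3 were compared, 0 were higher and 1 was lower, where 19.1% of 3825 genes were higher and 29.5% lower. For top against middle villus, 4 of 4 were higher, where 29.5% of 3768 genes were higher and 27.4% lower. Because these values chose the genes, nothing is read from the counts. The median log2 differences of the 4 genes were 3.19, 0.26 and 4.01 in these comparisons, and those of all genes were -0.39, -0.08 and 0.0.

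The only measure of error the table offers is the disagreement between different probes of one gene, which says nothing about animals. Its pooled SD was 0.91 log2 units for top villus against crypt, over 206 genes, and 1.05 for top against middle villus, over 247 genes. For middle villus against crypt it was 0.90, over 222 genes. Since the 4 genes were chosen by these differences, their size in such SDs is not read as support.

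The shape of the change was also counted over all genes. Of 4045 genes with both steps, 2203 were counted as inside 2-fold between crypt and middle villus. Of these, 597 (14.8% of all) then stood 2-fold or more higher in top villus, and 116 (2.87%) stood 8-fold or more higher. A step between dim values was counted as no step, and other steps that involve a dim value were counted by their bound. The counts therefore include genes whose step from crypt to middle villus was not measured. Zfand2a, Ddit3 and Hspa1a were among the 116, Hspa1a only because its step between dim values was counted as no step. The 4 genes were chosen by these same values, so nothing is read from their place in these counts. Ddit3 stood at 8.06-fold and so just past the limit, which it missed after quantile normalization (2.95 log2 units). The pattern of Gadd45g, lower in middle villus than in crypt and then higher in top villus, was shared by 339 genes (8.38%). Another 174 genes (4.30%) were higher at each step.

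**Figure D2:**
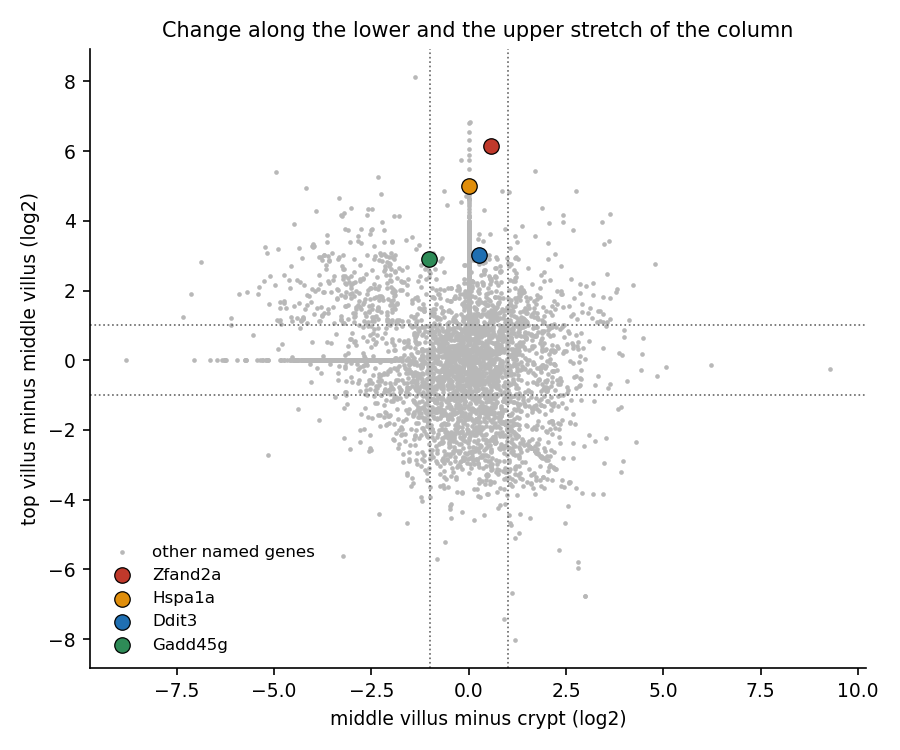
Log2 difference of top against middle villus (vertical axis) against that of middle villus against crypt (horizontal axis) for all named genes with both steps (grey) and the 4 stress genes (coloured), with dotted lines at 2-fold and a step between 2 dim values drawn at 0. Zfand2a lies at 0.56 across and 6.16 up, Ddit3 at 0.26 and 3.01, and Gadd45g at -1.02 and 2.90, while Hspa1a is drawn at 0 across with its bound of 5.01.

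The genes most alike in pattern were ranked by the distance between the 3 values after each gene's own mean was subtracted, over 2525 genes measured in all 3 parts. For Zfand2a the nearest were Ada at 0.81 log2 units, Mutyh at 0.85 and Pmp22 at 0.98 (Ada lay at the ceiling of a 16-bit scanner in top villus, so its distance and rank are not reliable), then St3gal4 at 1.32 and, farther off, S100a6. For Ddit3 the nearest were Cyp4f5 at 0.11 and Bag3 at 0.15, then Herc4 at 0.20, Tmsb10 at 0.30 and Zfp598 at 0.31. For Gadd45g they were Ackr3 and Arid5b at 0.20, Trim36 at 0.21, and Fbxl12 and Gmppa at 0.27. For Hspa1a the search was among 219 genes that were also dim in crypt and middle villus, with such values at the dim level, and gave Wdfy4 at 0.29, Zfyve1 at 0.30, Pkib at 0.32, Cpeb4 at 0.37 and Birc3 at 0.48. Over 3 points such likeness is loose.

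Other heat shock genes were described from a list. On the table were 25 genes of a list of 50 heat shock response genes, and of the 22 others compared between top villus and crypt, 4 were higher, 15 lower and 3 inside 2-fold, with a median log2 difference of -1.61 beside -0.39 over all genes. Over all genes 23.9% were higher and 39.5% lower, so the number of higher heat shock genes is near that background. The 4 higher genes, named after their values were seen except for Bag3 and Dnajb1, were Bag3, Dnajb1, Dnajb6 and Hmox1. Bag3, an Hsp70 co-chaperone, read 8.21 in crypt, 8.58 in middle and 11.38 in top villus, so that top villus was 3.16 log2 units above crypt and 2.79 above middle villus. Dnajb1, the J-domain partner of inducible Hsp70, was at least 2.81-fold higher in top villus than in crypt. Dnajb6, another J-domain protein, was at least 6.85-fold higher, and Hmox1, the heme oxygenase, at least 9.35-fold.

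The lower genes included several major chaperones. Hspe1, the mitochondrial co-chaperonin, was 46.9-fold lower in top villus than in crypt, and the mitochondrial chaperones Hspa9 and Hspd1 were 14.9-fold and 14.6-fold lower. Hsp90ab1 and Hsp90aa1, the cytosolic Hsp90 isoforms, were 12.5-fold and 7.80-fold lower. Hspa8, the constitutive paralog of Hspa1a, read 11.26 in crypt, 10.22 in middle and 9.31 in top villus. Its log2 difference of -1.96 for top villus against crypt ran opposite to that of Hspa1a. Hsph1, an Hsp110 nucleotide exchange factor, was dim in middle and top villus and at least 3.81-fold lower in top villus than in crypt.

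Between middle villus and crypt, 22 heat shock genes other than the 4 were compared. Of these 2 were higher and 13 lower, beside 19.1% and 29.5% of all genes. These 13 were all among the 15 that were lower in top villus than in crypt. Both comparisons use the same crypt sample, so this overlap is partly built in and nothing is read from it. Zfand2a differed by 0.56 between middle villus and crypt. For top against middle villus, 5 of 20 were higher and 7 lower, beside 29.5% and 27.4% of all genes. Zfand2b, the paralog of Zfand2a, read 6.07 in crypt and 7.21 in middle villus and was dim in top villus, so it had its high point where Zfand2a did not.

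AIRAP associates with the proteasome in other species, so 22 genes of the 19S proteasome particle and of the VCP and BAG6 machinery were examined. For top villus against crypt, 0 of 22 were higher (1 after median scaling), 12 were lower and 10 were inside 2-fold, with a median of -1.06. Shares over all genes were 23.9% higher and 39.5% lower, and the all-gene median was -0.39. After quantile normalization 8 were lower and the median was -0.65, where 1352 of 3932 genes were lower and the all-gene median was -0.18. Vcp, the segregase, was 2.30-fold lower, a call lost under median scaling (-0.96) and quantile normalization, and the proteasome subunits Psmd6, Psmc6 and Psmd14 were 6.14-fold, 4.20-fold and 3.76-fold lower. The highest, the subunit Psmd13, was 1.78-fold higher. For middle villus against crypt, 2 were higher and 7 lower, beside 19.1% and 29.5% of all genes.

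Around Ddit3, 34 other genes of the endoplasmic reticulum stress and integrated stress response list were compared between top villus and crypt, out of 70 listed. Of these 9 were higher, 16 lower and 9 inside 2-fold, with a median of -0.69, or -0.44 under median scaling. Over all genes 23.9% were higher and 39.5% lower in this comparison, so both counts are near that background. Atf4, the transcription factor upstream of CHOP, differed by -0.02 in log2 signal, with 11.80 in crypt, 11.61 in middle and 11.78 in top villus. Trib3, a pseudokinase target of ATF4 and CHOP, was dim in crypt at 2.88, then read 8.42 in middle villus and 10.34 in top villus. It was at least 19.5-fold higher in top villus and at least 5.18-fold higher in middle villus than in crypt, so that it was past 2-fold in middle villus, where Ddit3 was not.

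Herpud1, which takes part in degradation at the endoplasmic reticulum, also stood high by middle villus, with 7.38 in crypt, 10.24 in middle and 9.74 in top villus. Ddit4, an inhibitor of mTORC1 signalling, was 1.40 log2 units higher in top villus than in crypt, and P4hb, a protein disulfide isomerase, was 2.09 higher. Hspa5, the main chaperone of the endoplasmic reticulum, was 2.95-fold lower, Pdia4, another disulfide isomerase, 6.94-fold lower, and Eif2s1, the alpha subunit of eIF2, 15.3-fold lower. Among genes chosen after their values were seen, Eif2ak3, the kinase PERK, was at least 9.35-fold higher in top villus than in crypt, Sesn2, a sestrin induced by amino acid shortage, at least 13.4-fold and Dnajb9, a J-domain protein of the endoplasmic reticulum, at least 3.32-fold. Between middle villus and crypt, 33 genes other than Ddit3 were compared, of which 7 were higher and 11 lower, and the median was 0.0. The shares over all genes were 19.1% higher and 29.5% lower.

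CHOP acts as a dimer with C/EBP and AP-1 family proteins, and 5 such partners were on the table. For top villus against crypt, 3 were higher and 0 lower, beside 23.9% and 39.5% of all genes. Jun, an AP-1 subunit, was 5.26 log2 units higher and Fos, its partner, 3.68 higher. Cebpg, a C/EBP protein that pairs with ATF4, was 2.44 higher, with 9.18 in crypt, 10.20 in middle and 11.62 in top villus. Cebpd had a log2 difference of -0.81, inside 2-fold. Unlike Ddit3, Fos and Jun were already higher in middle villus than in crypt, by 2.21 and 1.71.

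Among growth-arrest and p53-response genes other than Gadd45g, 18 of a list of 50 were compared between top villus and crypt. Of these 8 were higher, 2 lower and 8 inside 2-fold, beside 23.9% higher and 39.5% lower over all genes. The list median was 0.27, which was 0.51 under median scaling and 1.25 with a common dim level of log2 6. Klf4, a factor of differentiating epithelium, was 3.26 log2 units higher and Btg1, an anti-proliferative gene, 2.26 higher. Cdkn1a, the cyclin-dependent kinase inhibitor p21, was dim in crypt and at least 6.79-fold higher in top villus and at least 5.69-fold higher in middle villus. The 2 lower genes were Gas5, a noncoding RNA host of small nucleolar RNAs, 6.19-fold, and Ndrg2, a differentiation gene, 2.48-fold.

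The other members of the GADD45 family gave little to set beside Gadd45g. Gadd45a read 8.40 in crypt, 9.05 in middle and 8.39 in top villus, a log2 difference of -0.01 for top villus against crypt. Gadd45b was dim in crypt and middle villus, so that its course between them was not measured, and read 5.42 in top villus, close to the dim level of that column. It was at least 2.42-fold higher in top than in middle villus, a call lost after quantile normalization (log2 0.30), and the bound against crypt was 0.0. Ppm1d, a phosphatase of the p53 and p38 pathways, was lowest in middle villus, as Gadd45g was, with 7.34 in crypt, 5.74 in middle and 9.19 in top villus. Its difference between middle villus and crypt fell inside 2-fold after quantile normalization (-0.95).

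Of 7 partners and targets of GADD45 proteins, 3 were higher, 3 lower and 1 was inside 2-fold for top villus against crypt. Over all genes 23.9% were higher and 39.5% lower. Map2k4 and Mapk9, kinases of the JNK pathway, were 2.58-fold and 2.83-fold higher, and the p38 kinase Mapk14 was 2.02-fold lower. That call was lost under all 3 scalings (-0.77 to -0.89), which left 2 lower. Cdk1, the mitotic kinase, was at least 40.7-fold lower in top villus than in crypt, and Pcna, the replication clamp, at least 43.1-fold lower. Cdk1 was already dim in middle villus, at least 81.5-fold below crypt. Pcna was 9.22-fold below crypt in middle villus, and top villus was at least 4.68-fold below middle villus.

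**Figure D3:**
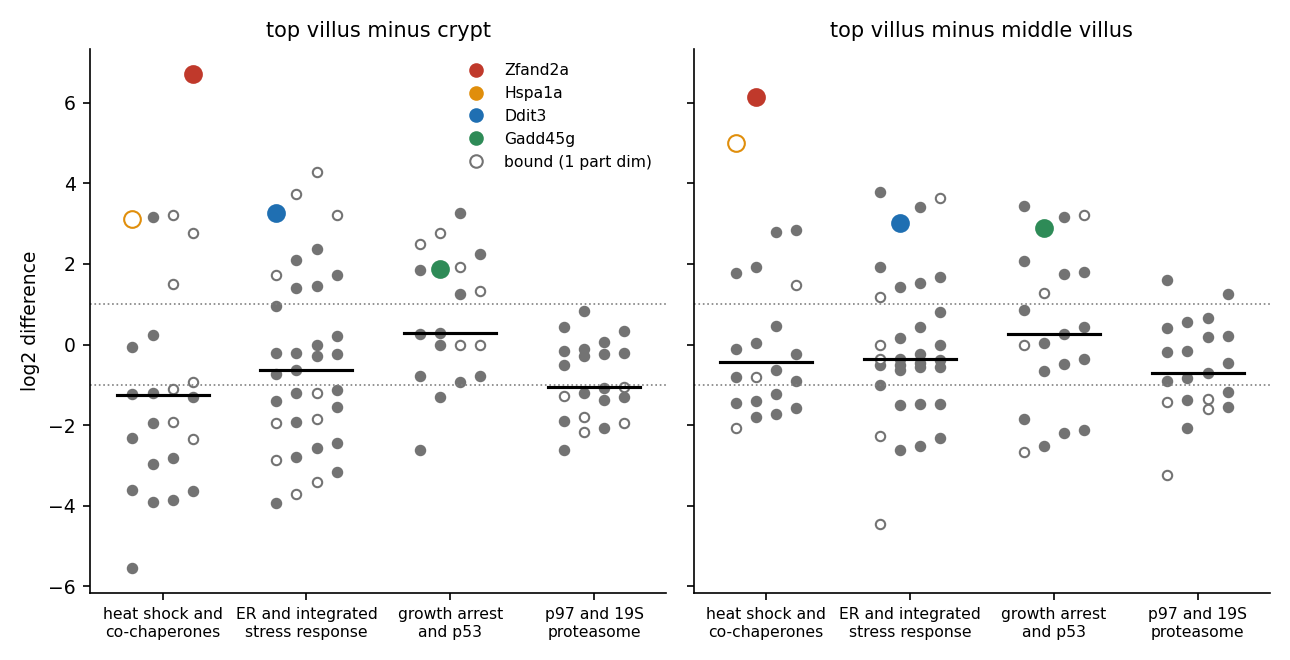
Log2 difference (vertical axis) of each gene of 4 lists (horizontal axis: heat shock, endoplasmic reticulum and integrated stress, growth arrest, and proteasome partners) for top villus against crypt (left) and against middle villus (right), 1 point per gene, open where the value is a bound, with the 4 stress genes coloured, black lines at list medians that include them and dotted lines at 2-fold. For top villus against crypt, 15 of the 22 other heat shock genes lie below the lower limit, while Zfand2a lies at 6.72 and Hspa1a at its bound of 3.11.

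The labels of the fractions went with most markers of dividing crypt cells and villus enterocytes. The summed linear signal of 12 probes for dividing crypt cells was 9249 in crypt, 253 in middle and 264 in top villus, and 9 of 9 such genes compared were lower in top villus than in crypt. For 14 markers of villus enterocytes the sums were 10522, 205375 and 287746, and 11 of 14 were higher in top villus than in crypt. Si was the 1 lower, with 8.14 in crypt, 10.95 in middle villus and a dim 4.83 in top villus. Anpep and Dpp4 were inside 2-fold, at log2 -0.11 and 0.54. For top against middle villus, 5 were higher and 3 lower, the 3 being Si, Anpep and Dpp4. Some markers listed for other cells were also higher in top villus than in crypt. In that comparison 23.9% of all genes were higher and 39.5% lower. For 7 T and NK cell markers the sums in crypt, middle villus and top villus were 3005, 3535 and 4673, and 5 were higher and 1 lower in top villus than in crypt. For 5 macrophage and MHC class II markers the sums were 13664, 19790 and 50965, with 4 higher and 0 lower in top villus than in crypt. The brightest of these in top villus were RT1-Ba at 14.68 and Cd74 at 13.80, and Lyz2 differed from crypt by -0.90. For 5 endothelial markers they were 1662, 3052 and 2850, and for 6 smooth muscle genes 5748, 6666 and 6930. Fibroblast genes (6) summed to 5804, 4400 and 3394, and B and plasma cell genes (3) to 5919, 12977 and 50, most of their signal being gone at the top. Goblet cell genes (3) summed to 17120, 16881 and 16473, and Paneth cell genes (3) to 10216, 5967 and 10783. These sums hide members that differ. Of the goblet genes, Clca1 was at least 57.4-fold lower in top villus than in crypt, and Tff3 and Zg16 were inside 2-fold. Of the Paneth genes, Pla2g2a was at least 7.00-fold lower, Reg3g 7.83-fold higher and Lyz2, also a macrophage marker here, inside 2-fold. The part of any of these cells in the values of the 4 genes was not tested.

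**Figure D4:**
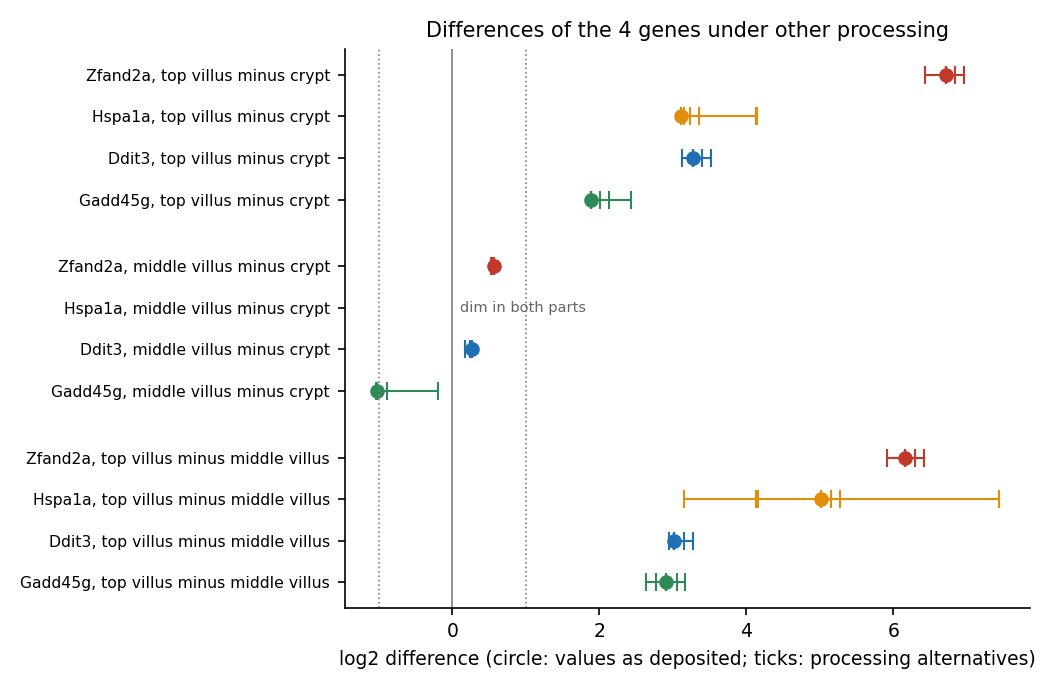
Log2 difference of each of the 4 genes (horizontal axis) for top villus against crypt, middle villus against crypt and top against middle villus, with circles for the values as deposited, ticks for each other scaling, detection or probe rule and dotted lines at 2-fold. Zfand2a stays between 6.43 and 6.96 and Ddit3 between 3.12 and 3.52 for top villus against crypt, while Hspa1a reaches 4.14 without the detection filter.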

How the data were processed

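Total RNA of the 3 jejunal fractions was column-purified, then amplified linearly and dye-labelled, per the labels' protocols, with 1 sample per part. The authors deposited a value table of 6653 probes on what reads as a log2 scale. Its normalization, background treatment and channel are not given in the sources used here, 659 values lie below 0, and the columns were not brought to a common distribution. Scanner output (ScanArray Express, LOWESS, per the file headers) carries no spot names and was left aside. Precision is limited by the number of arrays.

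Platform symbols named 4820 probes with 1 symbol each and left 1833 unnamed. Deposited log2 values were compared without further scaling, with the dim level and 2-fold limit given above, and a gene's value was the mean over its probes. Bounds were not allowed to pass 0. With 1 sample per part no test was run. List counts are to be read against the share of all genes past the limit in the same comparison.

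The 4 genes and the 8 gene and 11 marker lists were chosen with earlier results of these data known. Erythrocyte markers were not among the named probes. Named genes are the 4, their paralogs and direct partners, and in each list the 3 largest differences of each sign over crypt among genes measured in both parts, and for likeness the 5 nearest genes. Differences were recomputed under 3 scalings, 4 detection rules, the brightest probe and limits of 1.5-fold and 4-fold. The calculation was tested on simulated data, with 4-fold shifts planted only in single-probe genes of at least median crypt signal. Recovery of shifts in dimmer genes such as Hspa1a, or between columns of unlike spread, was not tested. Python 3.11.15, numpy 2.4.6, pandas 2.3.3 and matplotlib 3.10.9 were used. Promoter windows are from RefSeq (GRCr8), where 4 of 4 genes matched.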

Additional observations from a re-analysis of the deposited data

How the results depend on the processing

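No paired analysis was possible because each part had 1 sample, and leaving out a replicate was not possible for the same reason. Of the values recomputed, no difference past 2-fold changed sign. All 4 genes stayed 2-fold or more higher in top villus than in crypt and than in middle villus under the 3 scalings, but 3 remained when only probes measured in all 3 parts were kept, since Hspa1a then leaves, and 3 for top villus against crypt at a 4-fold limit, which Gadd45g misses. Hspa1a depends most on how dim values are treated. Its log2 difference from crypt, a bound of 3.11, became 4.13 after quantile normalization and 4.14 without the filter or with a floor of log2 5. Its difference from middle villus, a bound of 5.01, became 7.43 without the filter and 3.16 with a common dim level of log2 6. For middle villus against crypt, 1 gene (Gadd45g) was lower, against 0 after quantile normalization, 0 with the common level, 0 at 4-fold and 2 without the filter, which then counts Hspa1a, dim in both. The median of the growth-arrest list for top villus against crypt was 0.27, and 1.25 with the common level.

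Counts of all genes moved with the limit and the filter. At 4-fold, top villus had 477 genes above crypt and 866 below it, middle villus had 234 above crypt and 714 below it, and top villus had 519 above middle villus and 515 below it. Kept to probes measured in all 3 parts, top villus had 920 below crypt, middle villus 581 below crypt and top villus 555 above middle villus. The other counts of all genes stayed within 1.5 times. Quantile normalization turned the split for middle villus against crypt, 730 higher and 1127 lower as deposited, into 935 and 939. Median scaling moved the all-gene median for top villus against crypt to -0.15, against -0.39, and for top against middle villus to 0.24, against 0.0. Under the 3 scalings, 0 genes of the 8 lists passed 2-fold in opposite directions. The causes of these shifts were not tested. The lowest 25% of each column is a convention and not a measured background, and Hspa1a in crypt and middle villus has no level of its own.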

Other observations

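Genes of oxidative and metal stress moved in both directions. Of 20 compared between top villus and crypt, 4 were higher, 8 lower and 8 inside 2-fold, with a median log2 difference of -0.79. These shares are near those of all genes, 23.9% higher and 39.5% lower. Fth1 and Ftl1, the ferritin chains that store iron, were 3.65 and 3.60 log2 units higher in top villus than in crypt, Prdx5, a peroxiredoxin, was 2.38 higher, and Hmox1 was at least 9.35-fold higher. Fth1 was already 3.09 higher in middle villus than in crypt, and Ftl1 1.21 higher. Prdx1, a cytosolic peroxiredoxin, and Gpx2, the gastrointestinal glutathione peroxidase, were 19.4-fold and 19.1-fold lower in top villus than in crypt, and Nfe2l2, which encodes the regulator NRF2, was 5.01-fold lower. For middle villus against crypt, 5 were higher and 7 lower, beside 19.1% and 29.5% of all genes.

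Immediate-early genes were mostly higher at the top. Of 14 compared, 10 were higher and 2 lower in top villus than in crypt, with a median of 3.31. Over all genes 23.9% were higher and 39.5% lower. In top against middle villus, 12 of 14 were higher and 0 lower, beside 29.5% and 27.4% of all genes. Genes named here after their values were seen were Egr1, a zinc-finger factor, at least 23.3-fold higher in top villus than in crypt, Sgk1, a serum-induced kinase, at least 39.1-fold higher, and Myc, the growth regulator, dim in middle and top villus and at least 8.35-fold lower in top villus than in crypt. Egr1 read 5.99 in middle villus and 10.59 in top villus, with crypt dim. Its difference of middle villus against crypt was a bound of 0.0, and up to 1.25 under the other scalings. A flat stretch such as that of Zfand2a and Ddit3 was therefore not measured for Egr1. Sgk1 read 10.18 in middle villus and 11.34 in top villus, with crypt dim, so most of its rise lay below the middle of the villus.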
